A study of Mus musculus with 33 samples.

Results

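The voltage-gated ion channel genes and their relatives were taken from the count table by symbol: every symbol that starts with Kcn (potassium), Cacn (calcium), Hcn and a digit, or Scn and a digit (sodium). The rule found 112 of the 14664 symbols: 76 potassium, 21 calcium, 11 sodium and 4 HCN genes. It also takes in relatives that are not gated by voltage, such as inward rectifier and leak channels, and auxiliary subunits that form no pore. Of the 112 genes, 109 passed a filter on low counts and were tested; Kcns1, Kcng3 and Kcnk7, with 137, 115 and 87 reads over all libraries, were not. RefSeq lists another 27 protein-coding mouse symbols that fit the rule, which are not analysed here.

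The RNA came from ganglionic eminences of CD1 mouse embryos at e13.5 (embryonic day). These are swellings of the ventral forebrain where GABAergic neurons of the striatum and cortex are born. The 4 wild-type libraries were compared with 4 libraries of embryos labelled Dlx1/2-/-, that is with both copies of the genes of the homeodomain factors DLX1 and DLX2 mutated. The labels name no Cre driver and no cell type to which the mutation is limited. The labels speak of 4 embryos per genotype, 2 males and 2 females, without saying which library is of which sex or whether each library is 1 embryo, so p-values measure the spread between these libraries. The dissected tissue holds dividing progenitors as well as young neurons, and in bulk RNA fewer cells of a type and less RNA per cell cannot be told apart.

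Depth ran from 14.4 M counted reads in knockout replicate 3 to 117 M in wild-type replicate 1. Levels are given as CPM, the usual scaling of counts to library size, with library sizes adjusted by the trimmed mean of M-values (TMM). They are not corrected for gene length, so they are compared between genotypes and not between genes. Dlx1 measured 119 to 129 CPM in wild type against 21.5 to 26.1 CPM in knockout, and Dlx2 15.3 to 29.0 CPM and 1.02 to 1.501 CPM. The medial eminence marker Nkx2-1 was present at 17.9 to 22.6 CPM in wild type and 18.0 to 29.0 CPM in knockout. Gad1 and Gad2, whose products make GABA, measured 117 to 124 and 152 to 165 CPM in wild type. In knockout Gad1 measured 42.8 to 62.8 CPM and Gad2 52.6 to 60.8 CPM, both without overlap between the genotypes.

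Voltage-gated channels open or close a pore for ions when the membrane potential changes. Sodium channels carry the upstroke of the action potential, potassium channels end it and set the resting potential, calcium channels couple activity to transmitter release and gene expression, and HCN channels pass a mixed, depolarising cation current on hyperpolarisation. Pore subunits work with auxiliary subunits that set their number at the membrane and their gating. In the embryonic forebrain, different members appear as progenitors leave the cycle and become excitable neurons, and glial cells use a set of their own.

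Promoter stretches are shown for Kcnc2, the potassium channel gene with the clearest loss, and for Kcnj10, Kcnh7 and Kcnk10, whose libraries did not overlap between genotypes and were higher in knockout. The letters are from RefSeq (GRCm38.p6), read 5′ to 3′ on the gene's strand, and lie outside the annotated gene, in the 250 bases before a start. Capitals mark the homeodomain core TAAT or its reverse complement ATTA, the only motif letters searched for besides the palindrome TAATTA, which itself contains both. The Kcnc2 stretch lies at chr10:112269767-112269897 on the plus strand and is shorter because the rest of that window lies inside the annotated gene; the other 3 starts listed for Kcnc2 lie within the gene and are not shown. The Kcnj10 stretch lies at chr1:172340960-172341209 on the plus strand, the Kcnh7 stretch at chr2:63184288-63184537 on the minus strand and the Kcnk10 stretch at chr12:98578214-98578463 on the minus strand. For Kcnk10, 2 starts are listed and 1 stretch is shown.
Kcnc2: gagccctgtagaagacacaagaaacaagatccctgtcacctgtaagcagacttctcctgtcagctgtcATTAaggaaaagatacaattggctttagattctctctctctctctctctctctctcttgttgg
Kcnj10: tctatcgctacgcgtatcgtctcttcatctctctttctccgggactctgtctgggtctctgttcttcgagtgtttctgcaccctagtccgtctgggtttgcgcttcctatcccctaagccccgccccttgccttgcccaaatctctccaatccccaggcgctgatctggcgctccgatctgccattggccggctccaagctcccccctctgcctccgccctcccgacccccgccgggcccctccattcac
Kcnh7: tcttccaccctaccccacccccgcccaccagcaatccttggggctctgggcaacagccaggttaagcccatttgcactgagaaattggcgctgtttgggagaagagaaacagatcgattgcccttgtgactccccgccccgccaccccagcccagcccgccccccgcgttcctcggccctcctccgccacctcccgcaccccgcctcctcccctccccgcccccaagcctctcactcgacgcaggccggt
Kcnk10: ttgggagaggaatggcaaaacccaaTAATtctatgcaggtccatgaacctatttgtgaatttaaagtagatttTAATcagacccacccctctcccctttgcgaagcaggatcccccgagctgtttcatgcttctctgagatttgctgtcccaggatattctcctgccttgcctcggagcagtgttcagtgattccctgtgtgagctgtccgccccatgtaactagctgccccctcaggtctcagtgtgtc
The core occurs 1 time in the 131 bases of Kcnc2 and 2 times in the 250 bases of Kcnk10, and not in the 250 bases of Kcnj10 or Kcnh7. Among all 32851 RefSeq mouse promoters, 40.4% hold the core in the first 131 bases of the window and 54.9% in all its 250. Over the 113 promoters of the 81 channel genes with an entry, 47 (41.6%) held it. TAATTA occurred in 0 of those 113. Among all promoters it occurred in 2.83% in the first 131 bases and in 4.84% in all 250. Stretches cut short like that of Kcnc2 hold fewer bases, so the shares of channel genes and of all promoters are not directly comparable. A match of 4 letters is a description of the sequence and not a binding site, and no match says only that these letters are not in the window.

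In the Dlx1/2 knockout, 5 of the 109 tested channel genes passed the test (4.59%), against 1.48% of the 14510 genes tested. The glial inward rectifier gene Kcnj10 rose, which makes 1 gene higher where 0.586% of all genes were. The potassium channel genes Kcnc2 and Kcnh1, the calcium channel subunit gene Cacna2d3 and the sodium channel gene Scn10a fell, which makes 4 genes lower where 0.896% of all genes were. The test was edgeR's quasi-likelihood test with Benjamini-Hochberg adjustment over all genes and a threshold of 0.05. With the replicate number as a block, 13 channel genes passed, 4 higher and 9 lower, where 2.22% of all genes were called higher, 2.16% lower and 4.38% in all. DESeq2 called 3 higher and 10 lower, where it called 1.57% and 1.65% of all genes, 3.23% in all. The same-numbered libraries deviated together, but so did different numbers within replicates 1 and 2 and within 3 and 4. The labels do not say what a number stands for. Blocked values are therefore given beside each gene whose call they change, and not in place of the unblocked ones.

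**Figure D1:**
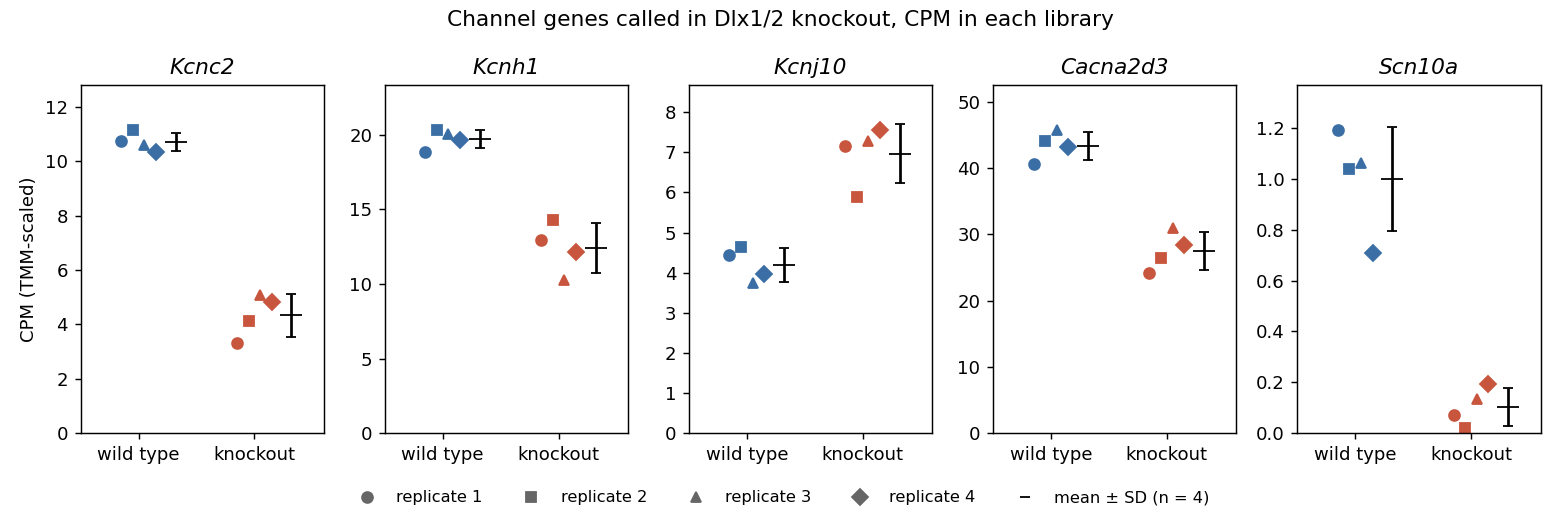
CPM (TMM-scaled) of the 5 channel genes that passed edgeR's test, 1 panel per gene, with 1 point per library and the mean ± SD (n = 4) beside each genotype. In every panel the 4 knockout libraries lie on 1 side of the 4 wild-type libraries: above them for Kcnj10 and below them for the other 4 genes.

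Most of the remaining genes differed little. The log2 change of the 109 genes had a median of -0.07 with quartiles at -0.20 and 0.12, and 88.1% of the genes lay under a 1.5-fold change. Over all genes tested the median was -0.0027, the quartiles were -0.08 and 0.08, and 95.9% lay under 1.5-fold. A positive change was measured for 36 channel genes and a negative one for 73, so 33.0% were positive against 49.0% of all genes. In 17 channel genes the genotypes did not overlap, 5 higher and 12 lower, where 2.89% and 3.09% of all genes did so, 5.98% in all. The 5 higher were Kcnj10, Kcnh7, Kcnk10, Kcnk9 and Cacna2d1. Nominal p-values under 0.05 were reached by 7 genes with higher and 18 with lower values, against 4.0% and 3.69% of all genes.

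**Figure D2:**
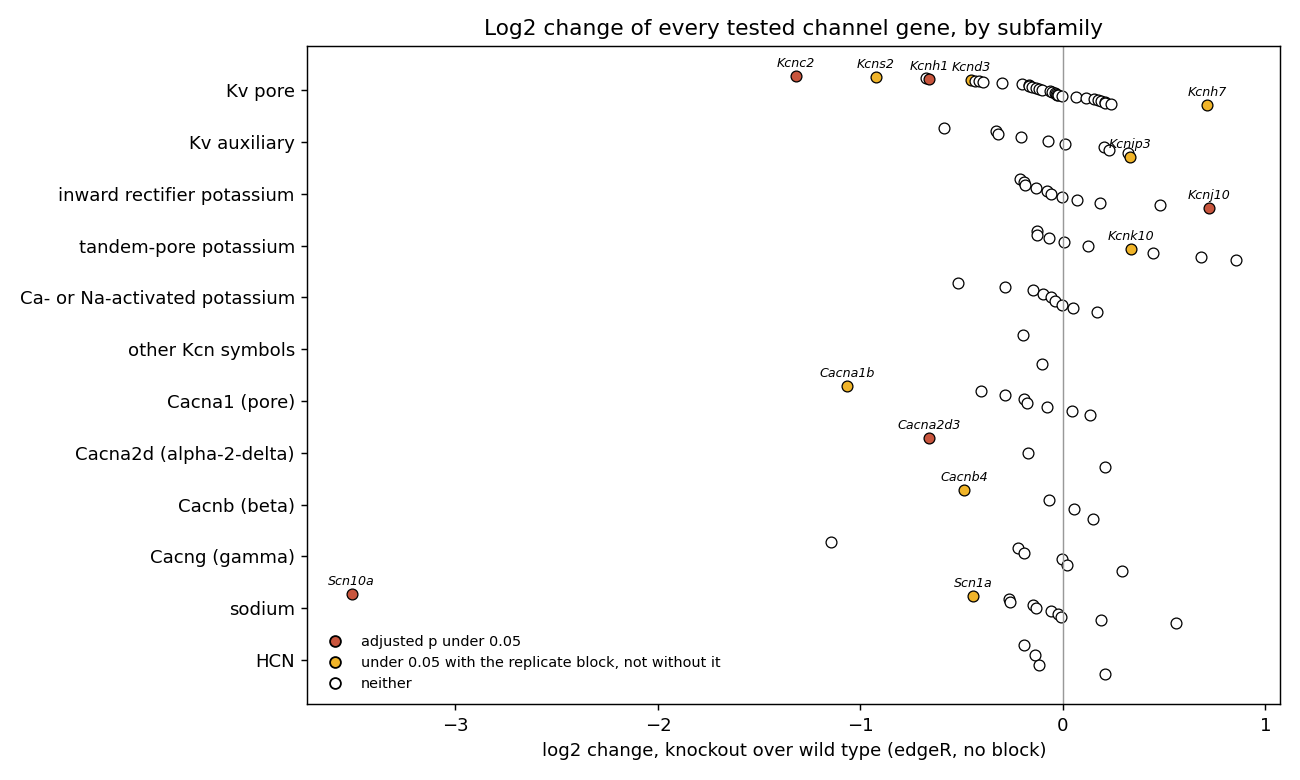
Log2 change (knockout over wild type, edgeR without the block) of each of the 109 tested genes, arranged by subfamily; filled red points passed at an adjusted p under 0.05 and yellow points passed in edgeR with the replicate block but not without it. Most points lie between -0.5 and 0.5, Scn10a stands farthest to the left at -3.51, and the HCN genes hold no filled point.

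Of the 76 potassium genes, 73 were tested, 1 rose and 2 fell, and their median log2 change was -0.06. They comprise pore genes of the Kv class, the Kv auxiliary subunits, inward rectifiers, tandem-pore leak channels and channels opened by calcium or sodium. Among the 32 tested Kv pore genes, Kcnc2 and Kcnh1 fell.

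Kcnc2 encodes a Shaw-type delayed rectifier known from fast-spiking GABAergic interneurons. It measured 10.7, 11.1, 10.6 and 10.3 CPM in the wild-type libraries and 3.32, 4.14, 5.08 and 4.81 CPM in the knockout libraries. The wild-type libraries were within 1 CPM of each other, and every knockout library was below 6 CPM. The means were 10.7 ± 0.331 and 4.34 ± 0.786 CPM (SD, n = 4 each), a 2.50-fold lower level resting on 1950 and 539 reads. The log2 change was -1.32 (SE 0.14, edgeR with Benjamini-Hochberg adjustment, adjusted p = 0.00084) and the fall was kept when any 1 library was left out. Of its Shaw-type relatives, Kcnc1 had a log2 change of -0.03 and Kcnc4 of -0.02, and neither passed.

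Kcnh1 encodes an ether-à-go-go channel, a slowly activating potassium channel. It measured 18.8, 20.3, 20.0 and 19.7 CPM in wild type against 12.9, 14.3, 10.2 and 12.1 CPM in knockout. The lowest wild-type library thus lay above the highest knockout library. The means were 19.7 ± 0.627 and 12.4 ± 1.68 CPM (SD, n = 4), 1.58-fold lower in knockout, with a log2 change of -0.66 (SE 0.11, edgeR with Benjamini-Hochberg adjustment, adjusted p = 0.014). The call was lost, at adjusted p from 0.0504 to 0.0542, without wild-type replicate 2, wild-type replicate 3 or knockout replicate 4.

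Kcnh7 belongs to the same ether-à-go-go family, in its erg branch, and had values in the opposite direction. It measured 17.4, 16.1, 11.2 and 12.7 CPM in wild type against 28.1, 24.9, 19.5 and 21.6 CPM in knockout. In both genotypes replicates 1 and 2 were above replicates 3 and 4, and every knockout library was above every wild-type library. The log2 change was 0.71 (SE 0.16) and missed the threshold without the block (edgeR with Benjamini-Hochberg adjustment, adjusted p = 0.072). With the replicate block the change was 0.72 (SE 0.07, edgeR, adjusted p = 0.0003), and the level rose by 1.64-fold. Another member, Kcnh3, had a log2 change of -0.40 without overlap (edgeR, adjusted p = 0.14, and 0.052 with the block), and passed in DESeq2 (adjusted p = 0.025).

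Kcns2 and Kcnd3 did not pass in edgeR's test on all 8 libraries without the block, and fell with the block and in DESeq2. Kcns2 encodes a silent subunit that forms no channel alone and modifies delayed rectifiers. It measured 6.68, 8.11, 6.45 and 5.50 CPM in wild type against 3.20, 3.60, 5.28 and 2.27 CPM in knockout. Knockout replicate 3 came close to the lowest wild-type library and the other 3 were well below. Its blocked log2 change was -0.96 (SE 0.17, edgeR with Benjamini-Hochberg adjustment, adjusted p = 0.012, and 0.11 without the block). Kcnd3 encodes a pore of the A-type current, which delays firing. It measured 42.5, 41.7, 49.6 and 55.1 CPM in wild type against 32.7, 29.8, 40.6 and 35.4 CPM in knockout. Replicates 3 and 4 were above replicates 1 and 2 in both genotypes. The blocked log2 change was -0.45 (SE 0.08, edgeR, adjusted p = 0.009, and 0.18 without the block). Kcnd2, an A-type pore gene of the same Kcnd class, had a log2 change of 0.21 and did not pass (52.6 ± 5.98 and 60.9 ± 10.3 CPM, SD, n = 4).

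None of the 10 Kv auxiliary genes passed without the block. Kcnip3, a calcium-binding partner of A-type pores also known as a transcriptional repressor, measured 43.6, 39.2, 35.8 and 30.1 CPM in wild type against 52.6, 53.6, 42.6 and 38.6 CPM in knockout. The genotypes overlapped, but within each replicate number the knockout library was higher. The log2 change was 0.33 (SE 0.15, edgeR with Benjamini-Hochberg adjustment, adjusted p = 0.61). With the block it was 0.33 (SE 0.07, edgeR, adjusted p = 0.025). The related Kcnip1, Kcnip2 and Kcnip4 had log2 changes of 0.01, 0.21 and 0.32 and did not pass in either fit. The subunit gene Kcne3 had the largest auxiliary change, at -0.59, and did not pass either.

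Among the 11 inward rectifier genes Kcnj10 alone passed. Kcnj10 encodes the channel by which astrocytes and cells of the oligodendrocyte lineage take up potassium. It measured 4.44, 4.65, 3.73 and 3.96 CPM in wild type against 7.16, 5.88, 7.29 and 7.54 CPM in knockout. Every knockout library was above every wild-type library. The means were 4.195 ± 0.422 and 6.97 ± 0.745 CPM (SD, n = 4), 1.65-fold higher in knockout and resting on 784 and 888 reads. The log2 change was 0.72 (SE 0.13, edgeR with Benjamini-Hochberg adjustment, adjusted p = 0.024). This call is the least stable of the 5: leaving out 1 library lost it in 6 of 8 cases, at adjusted p from 0.057 to 0.091, and kept it only without wild-type or knockout replicate 2. The other rectifiers included Kcnj9, the gene next to Kcnj10, at 0.19, and Kcnj2, with the most reads of the class, at -0.21 (12.46 ± 1.06 and 10.7 ± 2.24 CPM).

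The tandem-pore genes encode leak channels that hold the resting potential and respond to stretch, acid or lipids. Their summed level was 93.0 ± 3.78 CPM in wild type against 110.8 ± 2.85 CPM in knockout (SD, n = 4), and the genotypes did not overlap. Kcnk10, a stretch- and lipid-sensitive channel, made most of this sum, at 62.1, 64.9, 61.4 and 58.1 CPM in wild type against 82.6, 77.6, 72.9 and 78.0 CPM in knockout. The lowest knockout library lay above the highest wild-type library. Its log2 change was 0.34 (SE 0.08, edgeR with Benjamini-Hochberg adjustment, adjusted p = 0.095, and 0.014 with the block). DESeq2 called it as well. Kcnk9, with 272 reads over all libraries, also did not overlap (log2 0.68, edgeR, adjusted p = 0.40), and Kcnk6 had 0.44; neither passed.

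No calcium- or sodium-activated potassium gene passed among 9, with or without the block. The most read was Kcnn1, a small-conductance channel, at 61.5 ± 9.69 CPM in wild type against 55.6 ± 8.34 CPM in knockout. Kcnmb2, an auxiliary subunit of the large-conductance channel, had the largest change, at -0.52. Kcnmb4, its paralog, had -0.29 without overlap (13.3 ± 0.823 and 10.8 ± 1.22 CPM, SD, n = 4). Both values are below 1.5-fold and neither passed. Of the 2 other Kcn symbols, Kcnq1ot1 is a long noncoding RNA read from the strand opposite Kcnq1, so without known strand its reads and those of Kcnq1 cannot be told apart. It had a log2 change of -0.10, and Kcnrg, a regulator of channel assembly, had -0.20.

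**Figure D3:**
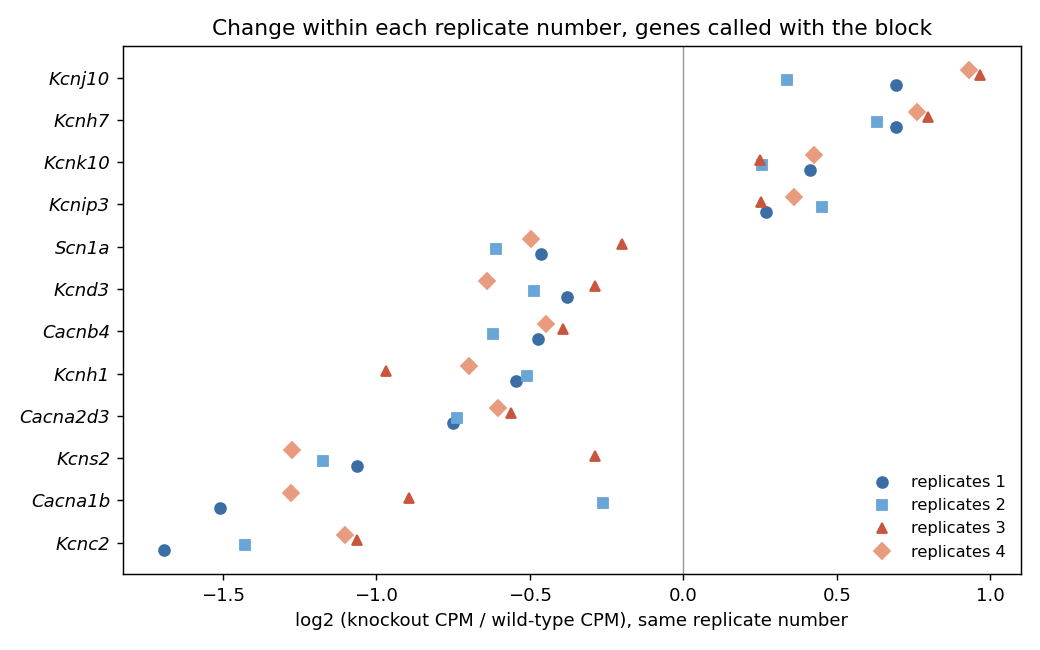
Log2 ratio of knockout to wild-type CPM within each replicate number (1 to 4) for the genes that passed with the replicate block; Scn10a, whose ratios lie beyond this axis, is left out. All 4 ratios fall on the same side of 0 for each gene, the smallest being those of replicates 2 for Cacna1b and replicates 3 for Scn1a among the genes that fell. The block uses the same numbers, so this agreement follows in part from how the genes were chosen.

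All 21 calcium genes were tested; 1 fell, 0 rose, and the median log2 change was -0.17. The gene that fell, Cacna2d3, encodes an alpha-2-delta subunit, which brings the pore to the membrane and presynaptic terminal. It measured 40.6, 44.0, 45.7 and 43.2 CPM in wild type against 24.1, 26.4, 31.0 and 28.4 CPM in knockout. The highest knockout library lay well below the lowest wild-type library. The means were 43.4 ± 2.11 and 27.5 ± 2.90 CPM (SD, n = 4), 1.58-fold lower, from 7648 and 3482 reads. The log2 change was -0.66 (SE 0.10, edgeR with Benjamini-Hochberg adjustment, adjusted p = 0.0076), and the fall was kept when any 1 library was left out. Its relative Cacna2d1, the most read of the 3 alpha-2-delta genes, was in the opposite direction at 0.21 without overlap (116 ± 2.23 and 134 ± 10.3 CPM) and did not pass (edgeR, adjusted p = 0.46).

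The pore gene of the N-type channel, Cacna1b, a main calcium source for transmitter release, had the largest change among the 8 Cacna1 genes. It measured 123, 48.7, 113 and 124 CPM in wild type against 43.2, 40.6, 60.8 and 51.1 CPM in knockout. Wild-type replicate 2 lay with the knockout libraries and the other 3 wild-type libraries far above them. The means were 102 ± 35.9 and 48.9 ± 9.10 CPM (SD, n = 4), and the log2 change was -1.07 (SE 0.27, edgeR with Benjamini-Hochberg adjustment, adjusted p = 0.11). Without wild-type replicate 2 it was -1.30 and passed (edgeR, adjusted p = 0.0022), while under the block it was -0.99 (SE 0.17, adjusted p = 0.0078). The other 7 pore genes had log2 changes from -0.40 (Cacna1c) to 0.13 (Cacna1i), and none passed in either fit.

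Cacnb4, a cytoplasmic beta subunit, did not pass in edgeR's test without the block, and fell with it and in DESeq2. It measured 57.2, 59.2, 48.0 and 46.3 CPM in wild type against 41.2, 38.5, 36.6 and 33.9 CPM in knockout. The genotypes did not overlap, and replicates 3 and 4 were the lower libraries in both. The blocked log2 change was -0.48 (SE 0.07, edgeR with Benjamini-Hochberg adjustment, adjusted p = 0.0033, and 0.073 without the block). Cacnb3, the most read of the 4 beta genes, had -0.07 (179 ± 15.9 and 171 ± 7.55 CPM). Of the 6 gamma genes, several of which regulate AMPA receptors, none passed. Cacng3 stood lowest at -1.15 without overlap but on 123 reads in all (edgeR, adjusted p = 0.25), and Cacng7, the most read, had 0.02.

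Among the 11 sodium genes, 1 fell, 0 rose, and the median log2 change was -0.13. Scn10a encodes a tetrodotoxin-resistant channel best known from sensory neurons. It was counted at 136, 21, 25 and 17 reads in the wild-type libraries and 3, 1, 2 and 5 reads in the knockout libraries. These are 1.19, 1.04, 1.06 and 0.709 CPM against 0.0711, 0.0209, 0.134 and 0.192 CPM, so the lowest wild-type library was above the highest knockout library. The means were 1.00 ± 0.205 and 0.105 ± 0.0746 CPM (SD, n = 4). The fitted log2 change was -3.51 (SE 0.44, edgeR with Benjamini-Hochberg adjustment, adjusted p = 0.0024), an 11.4-fold lower level. The low counts leave the fold uncertain: it ranged from -4.06 to -3.03 on the log2 scale when 1 library was left out, and was -2.34 with replicates 3 and 4 alone (adjusted p = 0.089).

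Scn11a, another sensory neuron channel gene that lies beside Scn10a in RefSeq's order on mouse chromosome 9, had a log2 change of 0.56 (SE 0.22, 1.22 ± 0.128 and 1.75 ± 0.487 CPM) and did not pass (edgeR with Benjamini-Hochberg adjustment, adjusted p = 0.48).

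The pore genes known from the central nervous system had values lower in knockout, by at most 1.36-fold. Scn1a, the channel of GABAergic interneurons that is mutated in Dravet syndrome, measured 16.4, 19.7, 16.8 and 16.3 CPM in wild type against 11.9, 12.9, 14.6 and 11.49 CPM in knockout. The genotypes did not overlap. The log2 change was -0.44 (SE 0.11, edgeR with Benjamini-Hochberg adjustment, adjusted p = 0.11), and with the block -0.45 (SE 0.09, adjusted p = 0.018). Scn2a, listed in the table as Scn2a1, had -0.26 (SE 0.11), from 55.5 ± 3.81 to 46.3 ± 5.97 CPM, and did not pass. Scn3a, the embryonic pore gene with the most sodium channel reads, had -0.13 (152 ± 13.0 and 139 ± 17.2 CPM), Scn8a -0.06 and Scn9a -0.15 (SE 0.13). None of them passed. The direction of Scn8a is not resolved, since its log2 change ranged from -0.13 to 0.0044 when 1 library was left out. The genes of the beta subunits, which anchor and tune the pore, include Scn2b at -0.01 and Scn3b at -0.02.

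**Figure D4:**
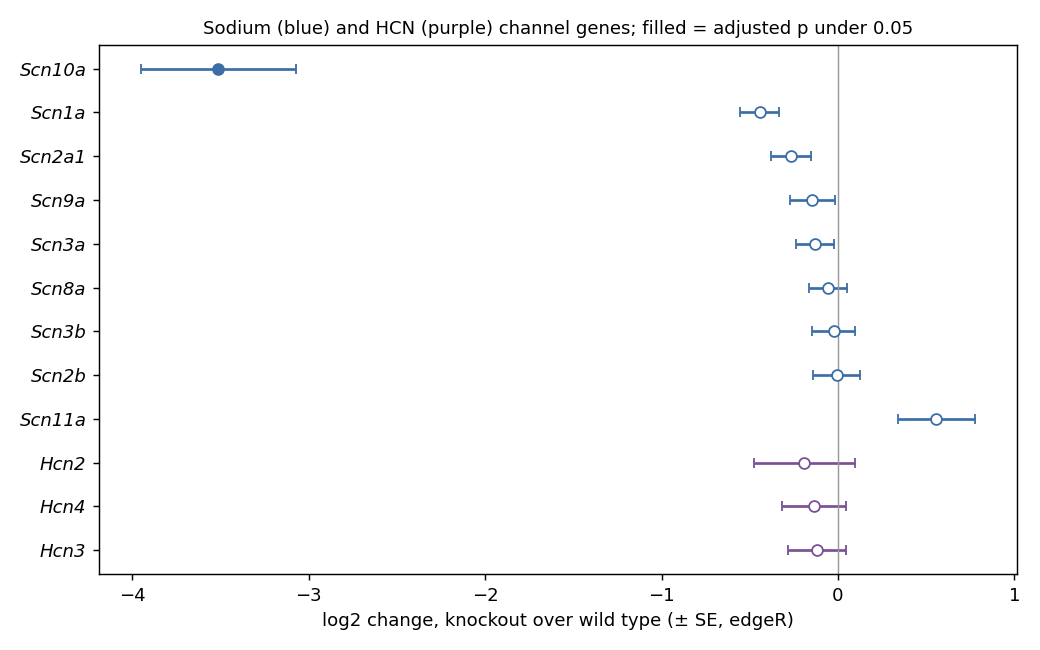
Log2 change (knockout over wild type) ± SE of 9 sodium (blue) and 3 HCN (purple) channel genes from edgeR without the block; a filled point passed at an adjusted p under 0.05. Scn10a is the one filled point at -3.51, and the other 11 genes lie between -0.44 and 0.56.

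None of the 4 HCN genes passed: edgeR called 0 with and without the block, DESeq2 0, and 0 had an unadjusted p under 0.05. Hcn3, the most read of the 4, measured 18.1 ± 3.51 CPM in wild type against 16.7 ± 3.06 CPM in knockout (SD, n = 4; log2 -0.12, SE 0.16). Hcn2 and Hcn4 had log2 changes of -0.19 (SE 0.29) and -0.14 (SE 0.18). Each standard error is above the size of the change it belongs to, so the direction of these 3 genes is not resolved.

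Summed over families, the genotypes overlapped throughout. The potassium genes together held 900.3 ± 31.0 CPM in wild type against 897.0 ± 45.8 CPM in knockout (SD, n = 4). The calcium genes held 782 ± 72.5 and 680.3 ± 61.1 CPM, the sodium genes 388 ± 19.9 and 355 ± 42.2 CPM and the HCN genes 34.2 ± 7.05 and 32.1 ± 5.40 CPM. Sums follow the most read genes, and the calcium sum includes Cacna1b, whose wild-type replicate 2 was low.

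**Figure D5:**
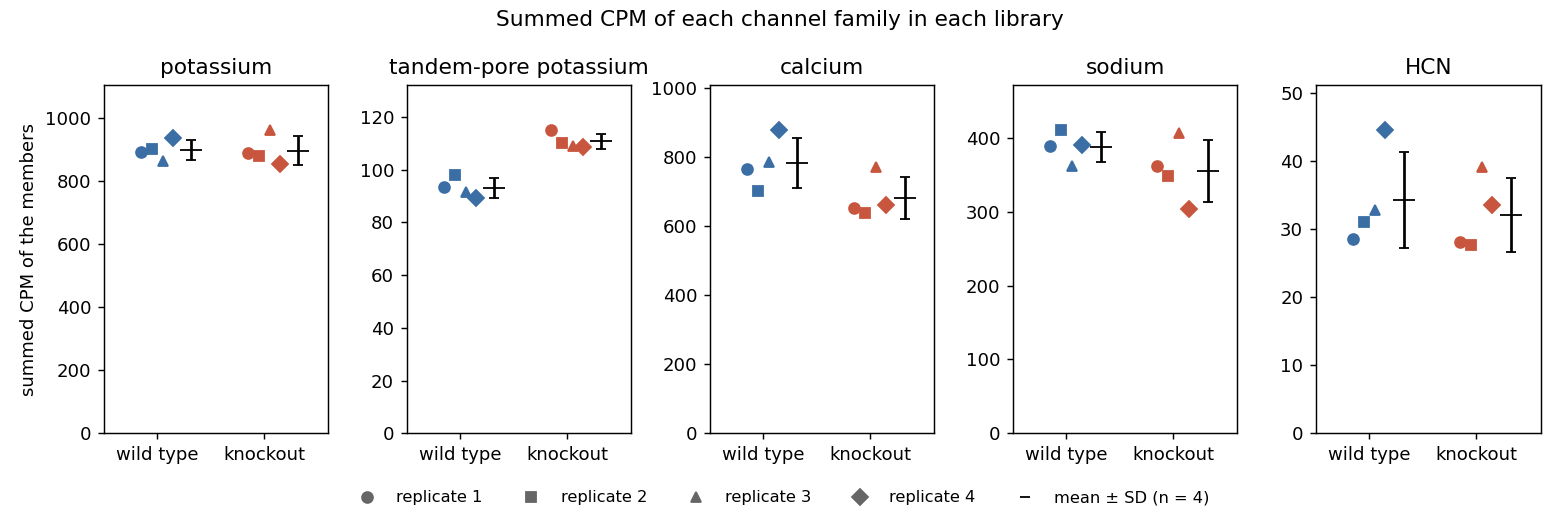
Summed CPM of the potassium, tandem-pore potassium, calcium, sodium and HCN genes in each library, with the mean ± SD (n = 4) of each genotype; every axis starts at 0. The genotypes overlap in all panels but that of the tandem-pore genes, where the knockout libraries (109 to 115 CPM) lie above the wild-type libraries (89.1 to 98.0 CPM).

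Genes whose products bind or anchor these channels were taken from a list of 46, all tested. None passed without the block (edgeR, 0 higher and 0 lower; median log2 change -0.01). With the block 1 rose and 3 fell, where 2.22% of all genes tested were called higher and 2.16% lower. The ankyrin gene Ank2, whose product anchors membrane channels, rose by 0.32 on the log2 scale (edgeR with Benjamini-Hochberg adjustment, adjusted p = 0.013). Those that fell were Dpp10 (-0.68, edgeR, adjusted p = 0.0013), a partner of the A-type pores like those made by Kcnd3, Fgf12 (-0.44, edgeR, adjusted p = 0.041), a sodium channel partner, and Stac2 (-1.43, edgeR, adjusted p = 0.028), a calcium channel partner.

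Markers of the cells in the tissue moved beside these genes, and their part in the results was not tested. For the counts that follow, edgeR called 0.586% of all genes tested higher and 0.896% lower. With the block it called 2.22% higher and 2.16% lower. The 15 neuron markers summed to 6464 to 7219 CPM in wild type against 6117 to 6407 CPM in knockout, without overlap, with 0 higher and 0 lower (1 lower, Stmn2, with the block). The 15 progenitor markers summed to 3298 to 3995 CPM and 3978 to 4765 CPM, with 0 called and, with the block, 5 higher. Beside the rise of Kcnj10 stand the oligodendrocyte precursor markers, of which 2 of 6 rose (Pdgfra by 1.53 and Gpr17 by 1.10 on the log2 scale). Olig1, Olig2, Sox10 and Cspg4 had 0.48, 0.51, 1.06 and 0.18 and were not called, though Olig2 passed with the block. The sums were 45.1 to 62.1 CPM in wild type against 73.1 to 131 CPM in knockout. Pdgfra alone had means of 17.7 and 51.0 CPM. Of 4 choroid plexus markers tested 1 rose, Otx2, from 10.1 to 23.2 CPM. The other 3 did not pass (Clic6 at -1.09 on the log2 scale, Enpp2 at 0.09 and the member Kcnj13 at -0.0033). The list's sums, 20.0 to 21.9 and 30.7 to 39.2 CPM, thus differ through Otx2. The lists for glutamatergic neurons (10 tested), pericytes (9), endothelium (8), microglia (9) and red cells (6) held no called gene, and their sums overlapped between the genotypes. No listed marker in the table was at 0 in all libraries. None of the lists was for GABAergic neurons, whose genes Gad1 and Gad2 were lower in knockout, as given above.

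The authors' deposited table, from their own comparison of the same libraries, has 2 of these genes higher and 6 lower at an adjusted p under 0.05, where 1.0% and 1.23% of its genes are. In the authors' deposited table Kcnj10 and Kcnh7 are higher, and Scn10a, Kcnc2, Cacna2d3, Cacna1b, Kcns2 and Kcnh1 lower.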

How the data were processed

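Of the 33 samples of the series, the 8 RNA-seq libraries of e13.5 tissue were used. The deposited values are raw read counts for each gene symbol, with no normalization by the authors. Beside them the authors deposited log2 fold changes, log2 mean levels, a likelihood ratio score and p-values, raw and adjusted, of their test. Reads were converted with bcl2fastq and aligned with STAR 2.4.2a to mm9, per the submitters' processing notes. The sources used here give neither the counting tool nor its annotation or strand setting. A gene and an antisense partner therefore cannot be told apart. The labels name polyA RNA but the protocol a kit for ribosome-depleted total RNA. The kit's RNA can hold unspliced transcripts.

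Counts were tested with edgeR 4.0.16 in R 4.3.3 (limma 3.58.1): filterByExpr with a minimum count of 10 (14510 of 14664 symbols kept), TMM scaling, glmQLFit, glmQLFTest and Benjamini-Hochberg adjustment at 0.05 over all genes, 4 wild-type against 4 knockout libraries with no other term. DESeq2 1.42.0, its size factors in edgeR, no filter, the replicate block, leaving out each library and the replicates 1 and 2 or 3 and 4 alone were alternatives. The edgeR fit without the block was tested on simulated counts, which held no split between replicates. The alternatives were not tested in this way.

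Same-numbered libraries of the 2 genotypes correlated at 0.251 to 0.588 in their deviations from the group means, every value over 0.1. The main test nonetheless did not pair the libraries. Only the replicate block, an alternative fit, paired them by number. Different numbers also correlated within replicates 1 and 2 (0.517 and 0.706) and within 3 and 4 (0.331 and 0.341), and negatively between these sets, so wild-type replicate 1 is closer to knockout replicate 2 than to its own number. Nothing in the labels says what a number stands for.

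The members and gene lists were chosen with earlier results of these data known. Named genes were those that passed, all sodium and HCN genes, the largest change (mean of at least 1 CPM) and the most reads in each potassium and calcium subfamily, and those without overlap and at least 2-fold changed. Kcnh7, Kcns2, Kcnd3, Kcnh3, Kcnk9, Kcnmb4, the Kcnip relatives, Kcnc1, Kcnc4, Kcnd2, Kcnj9, Cacna1c and Cacna1i were named after their values were seen. Some genes that this rule takes are counted but not reported by name here. RefSeq names (GRCm38) matched 111 members directly and 1 through a synonym. ChIP-seq files were not used, since no annotation of their build was at hand. The 4 embryos per genotype and the read totals limit precision: genes under 1 CPM rest on few reads.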

Additional observations from a re-analysis of the deposited data

Results flagged for a closer look

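In 6 of 82 groups of 4 libraries, 1 library stood apart from the other 3 by Dixon's criterion at 95%, where chance gives about 1 in 20. Wild-type replicate 2 was concerned in 4 of them. Cacna1b measured 48.7 CPM there against 113 to 124 CPM in the other wild-type libraries, and without this library Cacna1b passes in edgeR's test without the block; with it, Cacna1b passes only under the block and in DESeq2 among the fits on all 8 libraries. Kcne3 measured 2.67 CPM against 1.58 to 1.71 CPM, Kcnrg 6.68 CPM against 4.89 to 5.04 CPM, and Scn1a 19.7 CPM against 16.3 to 16.8 CPM. Wild-type replicate 4 was the lowest for Kcnj2, at 10.9 CPM against 12.8 to 13.2 CPM. It was also the highest for the sum of all 112 channel genes, at 2251 CPM against 2044 to 2078 CPM.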

How the results depend on the processing

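Without the block, edgeR called 1 member higher and 4 lower. With the replicate block it called 4 and 9: among potassium genes 4 higher and 4 lower, among calcium genes 3 lower and among sodium genes 2 lower. The block lost none of the 5 calls. DESeq2 called 3 higher and 10 lower: potassium 3 and 5, calcium 3 lower, sodium 2 lower. With DESeq2's size factors, or without the filter on low counts, the 5 calls were the same genes. The replicates 1 and 2 alone gave 8 lower (potassium 4, calcium 3) and 1 higher. The replicates 3 and 4 alone gave 5 calls, with 0 sodium genes. Lower were the potassium genes Kcnc2 and Kcnh1 and the 2 calcium genes Cacna2d3 and Cacna1b, and Kcnh7 was higher. Fewer libraries enter both of these fits, and the share of all genes called in them was not counted.

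When 1 library was left out, the members called higher ranged from 0 to 1 and those lower from 3 to 5. Potassium genes ranged from 0 to 1 higher and from 1 to 3 lower, calcium genes from 1 to 2 lower, and sodium genes stayed at 1. HCN genes stayed at 0. Kcnc2 and Cacna2d3 passed under every alternative. Kcnj10 was also lost with replicates 1 and 2 alone (edgeR, adjusted p = 0.20) and with 3 and 4 alone (0.057), and Kcns2 was gained without knockout replicate 3.

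Among the 36 genes chosen by the naming rule, the direction turned only for genes near 0 that were not called; the other members were not compared in this way. With replicates 1 and 2 alone these were Cacnb3 (0.015), Hcn2 (0.064) and Scn3b (0.059), and with 3 and 4 alone Cacng7 (-0.066), Kcnq1ot1 (0.15), Scn2b (0.19) and Scn8a (0.024). When 1 library was left out, log2 changes ranged from -0.048 to 0.080 for Cacng7, -0.39 to 0.022 for Hcn2, -0.24 to 0.023 for Hcn3, -0.24 to 0.033 for Hcn4, -0.13 to 0.078 for Scn2b, -0.083 to 0.081 for Scn3b and -0.13 to 0.0044 for Scn8a. The cause was not tested. Depth limits the genes with few reads, among them Scn10a and Cacng3 with 210 and 123 reads in all.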

Other observations

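Genes within 2 places of the 13 channel genes that passed with the block were looked up in RefSeq's order (GRCm38). Of these, 2 passed edgeR's test with Benjamini-Hochberg adjustment. Over all genes tested, 1.48% passed without the block and 4.38% with it. Whether neighbours were called more often than other genes was not tested. Neb, which encodes the muscle protein nebulin and lies next but one to Cacnb4, fell from 15.6 to 2.13 CPM (log2 -2.85, SE 0.15, adjusted p = 5.9e-06). Wnt5a, a secreted signalling ligand, lies beside Cacna2d3 and fell from 13.4 to 6.60 CPM (log2 -1.03, SE 0.14, adjusted p = 0.0040). Another 3 passed with the block only, in edgeR: Arl5a beside Cacnb4 (log2 -0.40, adjusted p = 0.017), Sertad4 near Kcnh1 (-0.40, 0.011) and Igsf8 near Kcnj10 (0.65, 0.00042).

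In 31 of the 109 tested channel genes (28.4%), replicates 3 and 4 lay on 1 side of replicates 1 and 2 in both genotypes, against 47.6% of all genes tested. They were higher in 20 genes, among them Kcnd3, Kcnd2, Cacna1c and Hcn4, and lower in 11, among them Kcnh7, Kcnip3 and Cacnb4. The labels give no reason for this split.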
